A study of Mus musculus with 24 samples.

Results

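Of the 24594 genes counted in mouse embryonic stem cells (mESCs), 15 had lost most of their RNA in the line without BPTF. They were not much lower than wild type in any of 5 other lines, each made to lack another subunit of ISWI chromatin remodelers. They are the DNA methyltransferase gene Dnmt3a, the germline genes Piwil4 and Topaz1, the genes of the cytokine RANKL (Tnfsf11), the fructose transporter GLUT5 (Slc2a5) and the inositol cotransporter Slc5a11, and Igsf10, Hpca, Pdzd4, Armcx2, Tmem28, Zfp941, Prr23a3, Gm20939 and the long noncoding RNA 2400006E01Rik. They were chosen by their measured values. CPM (counts per M, or mega, counts of the library) scales each gene to the depth of its library, and d is the log2 of the mean CPM of a line plus 0.5 over that of the wild-type (WT) libraries of its batch plus 0.5. A gene was a member when d was at most -2 in BptfΔ and over -0.5 in each other line, outside chromosome Y, a stretch each of chromosomes 4 and 6, and gene names starting with Hox, Pcdh, Col or Lam. The low level in BptfΔ and the lack of a large fall elsewhere are therefore set by the choice and are given as a description, with no test.

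BPTF is the large subunit that defines the remodeler NURF, in which an ISWI motor protein, SNF2L or SNF2H, slides nucleosomes with the energy of ATP. BPTF has reader domains for methylated and acetylated histone tails, and NURF is known as a regulator of transcription. DNMT3A and DNMT3B place new methyl groups on cytosines, DNMT3L is their partner without activity of its own, and DNMT1 with UHRF1 copies existing methylation after replication. PIWIL4, also called MIWI2, is the PIWI protein that directs such new methylation to transposons in fetal male germ cells.

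The mESCs have the genetic background 129S6/SvEvTac, were grown on gelatin in medium with serum and leukemia inhibitory factor, and received no treatment. Each line was made with CRISPR–Cas9 and is a single picked clone of its genotype, so a property of the clone and an effect of the deleted gene cannot be told apart. BptfΔ (2 libraries) and 2 WT libraries form batch C. Rsf1Δ, WstfΔ and Tip5Δ (2 libraries each, in batches A, A and B), the libraries labelled Cecr2Δ (3, batch D) and Acf1Δ (2, batch E) were set against 2, 2, 2, 3 and 2 WT libraries, those of batch A serving both lines. The lines were made to lack RSF1 (RSF complex), WSTF (WICH, gene Baz1b), TIP5 (NoRC, gene Baz2a), CECR2 (CERF) and ACF1 (ACF and CHRAC, gene Baz1a). The paper reports that western blots detected none of the deleted proteins in their lines.

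The 24 libraries held 13.4 to 36.7 M counts, and those of batch C 16.8 to 18.9 M. Bptf mRNA was at 303 and 321 CPM in batch C WT and at 80.9 and 77.2 CPM in BptfΔ. Cecr2 mRNA was not lower in the libraries labelled Cecr2Δ (log2 fold change 0.37), and Baz2a mRNA was not called lower in Tip5Δ (-0.26), so neither mRNA checks its label. The 2 WT and 2 BptfΔ libraries of batch C held 3298 to 4804 CPM of Rpph1, an RNA without a poly(A) tail that reached at most 3.39 CPM in the other libraries. BptfΔ was in no other batch. Its d and fold changes rest only on WT libraries that share this property, while levels set beside libraries of other batches do not.

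The starts of the members are shown first because all 15 genes have a promoter window in RefSeq and the windows can be set side by side. The 250 bases before the start are given in GRCm38 (mm10), 5′ to 3′ on the strand of the gene, with every CG pair in capitals. A start used here can differ from the edge of the gene span given below. A window can therefore overlap that span, as for Pdzd4 and Dnmt3a. The long noncoding RNA has none, Tnfsf11 has few, Pdzd4 has a moderate number, and Dnmt3a, which has several starts, is shown with its CG-rich upstream start and with its start farthest downstream.
2400006E01Rik, chr3:41528475-41528724, minus strand: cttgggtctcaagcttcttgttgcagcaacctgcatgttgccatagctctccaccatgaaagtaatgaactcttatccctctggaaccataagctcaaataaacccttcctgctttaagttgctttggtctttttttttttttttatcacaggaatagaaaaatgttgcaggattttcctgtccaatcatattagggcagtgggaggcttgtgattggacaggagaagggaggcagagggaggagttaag
Tnfsf11, chr14:78308044-78308293, minus strand: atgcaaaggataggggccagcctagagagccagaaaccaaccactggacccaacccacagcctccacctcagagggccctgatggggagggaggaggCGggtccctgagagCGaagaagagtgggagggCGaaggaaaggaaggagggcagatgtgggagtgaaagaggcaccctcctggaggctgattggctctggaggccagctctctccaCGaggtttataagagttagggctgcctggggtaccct
Pdzd4, chrX:73824970-73825219, minus strand: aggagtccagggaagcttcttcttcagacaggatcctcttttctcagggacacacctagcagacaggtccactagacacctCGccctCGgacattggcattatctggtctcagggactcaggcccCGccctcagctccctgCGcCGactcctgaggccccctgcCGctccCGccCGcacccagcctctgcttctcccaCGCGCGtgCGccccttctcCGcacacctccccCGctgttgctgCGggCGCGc
Dnmt3a, upstream start, chr12:3806730-3806979, plus strand: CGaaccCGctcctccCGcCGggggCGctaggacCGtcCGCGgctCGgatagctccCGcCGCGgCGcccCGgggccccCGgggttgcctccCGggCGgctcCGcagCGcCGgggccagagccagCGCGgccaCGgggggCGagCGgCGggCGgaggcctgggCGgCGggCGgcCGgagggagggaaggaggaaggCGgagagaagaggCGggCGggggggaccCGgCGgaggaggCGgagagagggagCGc
Dnmt3a, downstream start, chr12:3891494-3891743, plus strand: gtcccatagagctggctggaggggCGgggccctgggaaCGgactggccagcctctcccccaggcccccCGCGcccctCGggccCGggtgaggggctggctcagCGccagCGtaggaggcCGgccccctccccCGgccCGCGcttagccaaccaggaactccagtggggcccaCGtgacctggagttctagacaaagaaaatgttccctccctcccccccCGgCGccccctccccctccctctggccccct

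These windows hold 0 CG pairs for 2400006E01Rik, 4 for Tnfsf11, 17 for Pdzd4, and 38 and 15 for the upstream and downstream starts of Dnmt3a. Most members had starts poor in CG. Over the first listed window of each gene, the median was 8 CG pairs in the members and 15 in the 12223 tested genes that have a window (77.9% of the 15682 tested). The CG pairs observed, divided by those that the C and G content would give, were over 0.6 in 3 of the 15 members (20%), namely Dnmt3a, Pdzd4 and Prr23a3, and in 63.4% of the tested genes. The share was 39.5% among the 1022 windows of genes called lowered in BptfΔ and 58.1% among the 3618 windows of genes between the lowest member and 20 CPM in WT of batch C. Genes lowered in BptfΔ as a whole thus also had fewer CG-rich starts than all tested genes, and no test was made of the members.

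**Figure D1:**
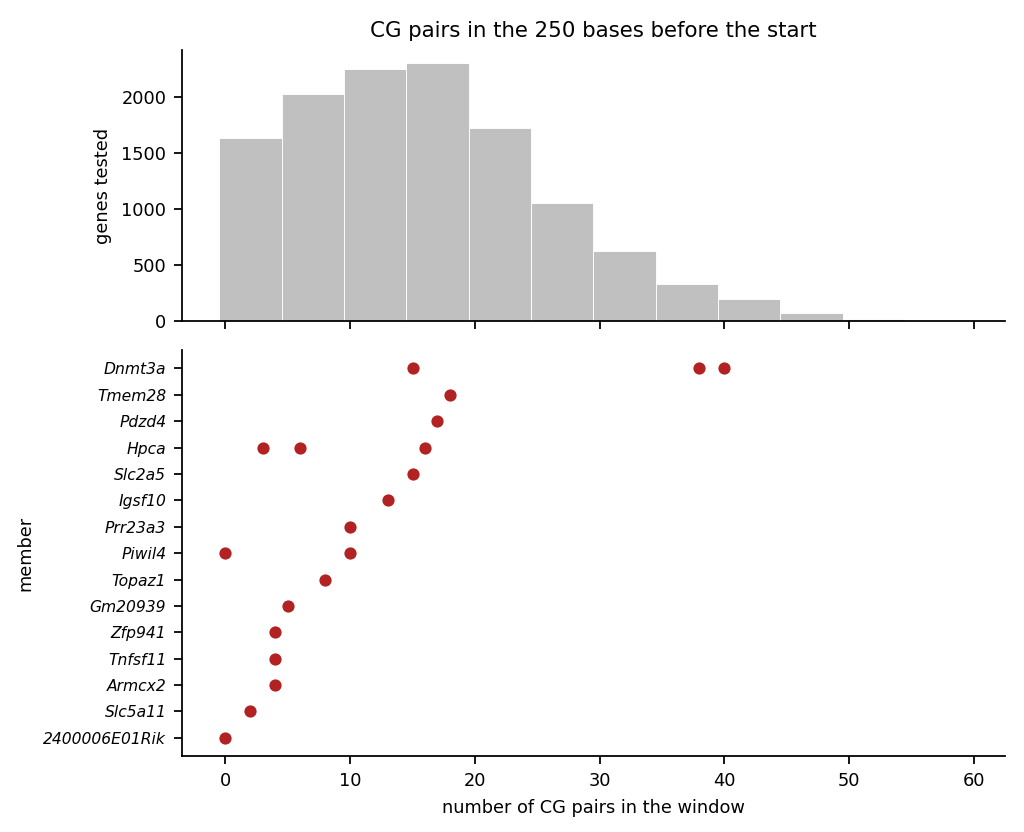
CG pairs in the 250 bases before the start: number of tested genes per bin of 5 CG pairs, first listed window (top, 12223 genes), and all 20 windows of the 15 members as points (bottom). Dnmt3a has the windows with the most CG pairs (38 and 40), and 2400006E01Rik and 1 window of Piwil4 have 0.

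Motifs were sought on both strands in the first listed windows. The GC box GGGCGG was in 8 members and in 57.7% of the tested genes, and CCAAT was in 8 members and in 36.5%. The letters TATAAA were in 2 members and in 6.69% of the tested genes. These 2 are Tnfsf11 and Piwil4.

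All 15 members passed the filter on low counts. In each of them both BptfΔ libraries lay below both WT libraries of batch C, which was so for 39.8% of the tested genes, and below all 22 other libraries, which was so for 14.8%. edgeR called all 15 lowered, beside 8.59% of the tested genes, as the rule on the same contrast would give. The median d of the members was -2.16 in BptfΔ, and 0.07, -0.14, 0.03, 0.23 and 0.14 in Rsf1Δ, WstfΔ, Tip5Δ, the Cecr2Δ-labelled libraries and Acf1Δ. The heatmap of the members shows a single dark block, the BptfΔ libraries, and few other strong colours.

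**Figure D2:**
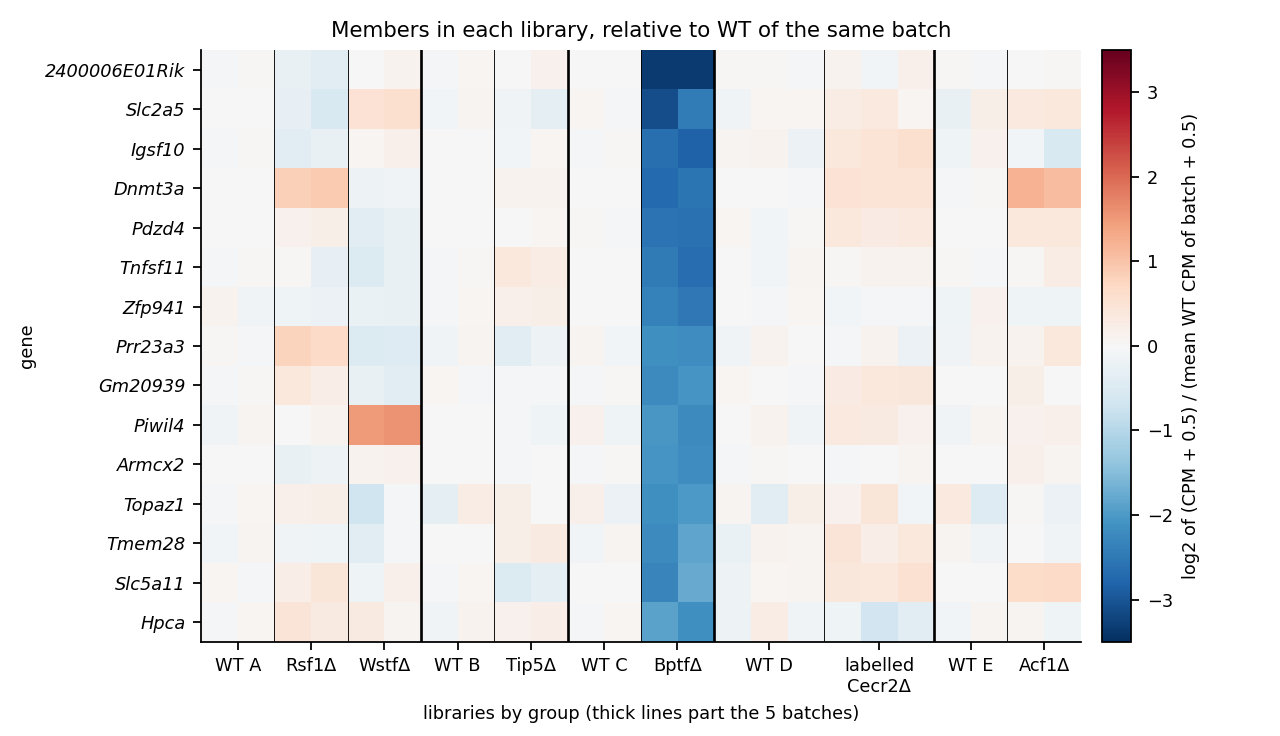
The 15 members (rows) in the 24 libraries (columns, by batch), as the log2 of CPM plus 0.5 over the mean of the WT libraries of the same batch plus 0.5. Only the 2 BptfΔ columns are dark blue in all rows, which the rule required, and the strongest red is Piwil4 in WstfΔ (d 1.52).

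Few genes met the rule because genes strongly lowered in BptfΔ were usually lower in other lines too. A d of at most -2 in BptfΔ was found for 284 genes (1.15% of all 24594). Of these, 229 were at or below -0.5 in WstfΔ, 198 in Rsf1Δ, 160 in Tip5Δ, 120 in the Cecr2Δ-labelled libraries and 99 in Acf1Δ. For 25 it was so in all 5 other lines, and for 16 in none, of which Txnrd3 in the chromosome 6 stretch was left out. The share of all genes at or below -0.5 in each line was not computed. The median d of all tested genes lay between -0.043 (Tip5Δ) and -0.008 (Rsf1Δ) in the 5 other lines. The same rule with another line in the place of BptfΔ found 2 genes for WstfΔ, 1 for Tip5Δ and 0 for Rsf1Δ, Acf1Δ and the libraries labelled Cecr2Δ. For 14 of the 15 members, the exception being Topaz1, every WT batch had a mean of at least 1.5 CPM, the level from which a d of -2 can be reached.

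Dnmt3a (gene ID 13435, chromosome 12, 3801559 to 3914443) was at 188 and 183 CPM in batch C WT and at 27.8 and 31.2 CPM in BptfΔ, a mean of 15.9% of WT (95% counting interval 14.9 to 17.0%). The 9 WT libraries of the other batches lay between 129 and 205 CPM, with a median of 181. The BptfΔ libraries were thus far below every WT library.

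Dnmt3a was higher than WT in several other lines and slightly lower in WstfΔ. It was at 361 and 383 CPM in Rsf1Δ against 205 and 201 CPM in WT of batch A, at 309.6 and 284 CPM in Acf1Δ against 129 and 139 CPM, and at 265, 255 and 256 CPM in the libraries labelled Cecr2Δ against 188, 185 and 181 CPM. In WstfΔ it was at 180 and 187 CPM, below WT of batch A. In Tip5Δ it was at 175 and 174 CPM, above the 158 and 160 CPM of WT of batch B. Every library of 4 lines thus lay above WT of its batch, and every library of WstfΔ below. Such separation is common. For 58.9% of the tested genes, every library of one other line lay above WT and every library of another below. edgeR called Dnmt3a raised in Acf1Δ (log2 fold change 1.15, standard error 0.059), as it did 1.14% of the tested genes.

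The other genes of DNA methylation divided in BptfΔ. Dnmt3b fell from 377 and 392 CPM to 105 and 109 CPM (log2 fold change -1.83, edgeR adjusted p = 8.36e-19), and Dnmt3l from 299 and 298 CPM to 54.7 and 56.3 CPM (-2.41, adjusted p = 2.18e-21). Both also fell in WstfΔ, Dnmt3b by a log2 fold change of -1.34 and Dnmt3l by one of -2.76 (edgeR adjusted p = 7.05e-16 and 3.51e-22), where Dnmt3a had one of -0.15. Dnmt3l further fell in the libraries labelled Cecr2Δ (-1.21, edgeR adjusted p = 3.09e-17). Its log2 fold changes were -0.71 in Rsf1Δ and -0.34 in Tip5Δ but 0.82, a rise, in Acf1Δ, all without a call. The genes that maintain methylation were not called in BptfΔ, with log2 fold changes of 0.24 for Dnmt1 and 0.06 for Uhrf1, nor were those of the demethylating enzymes, with -0.19 for Tet1, 0.20 for Tet2 and -0.56 for Tet3. Of the 244 tested chromatin and DNA methylation genes, 17 (6.97%) were called lowered and 6 (2.46%) raised in BptfΔ, beside 8.59% and 5.25% of all tested genes.

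**Figure D3:**
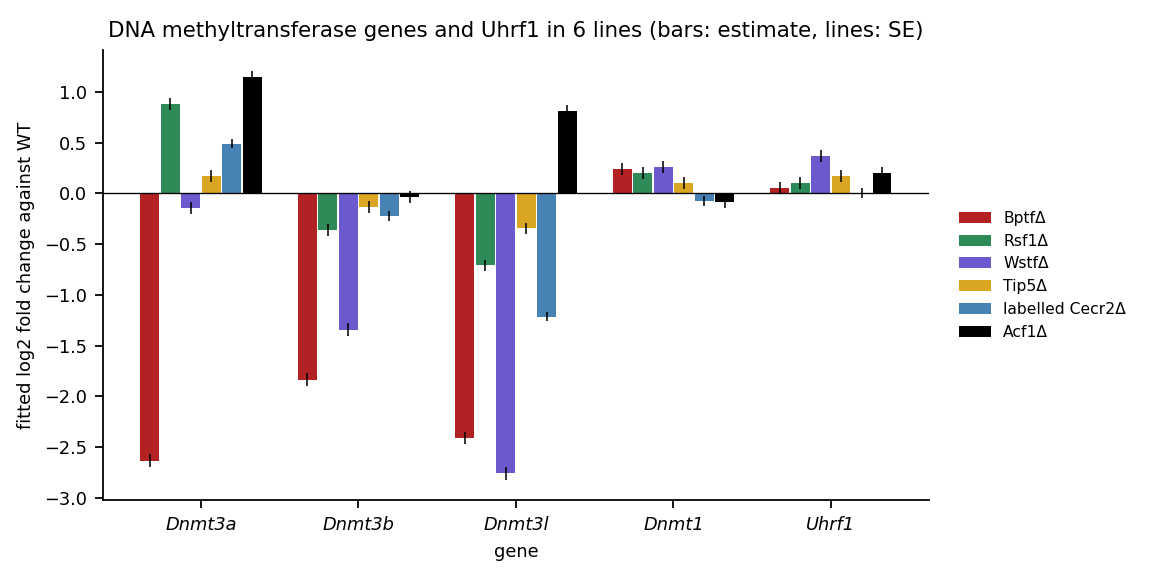
Fitted log2 fold change against WT (bars) with its standard error (lines) of 4 DNA methyltransferase genes and Uhrf1 in the 6 lines. Dnmt3a is far below 0 in BptfΔ only, which chose it, while Dnmt3b and Dnmt3l are below -1 in both BptfΔ and WstfΔ.

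Piwil4 (gene ID 330890, chromosome 9, 14701776 to 14740672) was at 8.67 and 6.97 CPM in batch C WT and at 1.54 and 1.27 CPM in BptfΔ, 17.8% of WT (12.9 to 24.3%). The 9 other WT libraries lay between 5.99 and 13.4 CPM. In WstfΔ it was at 19.2 and 20.2 CPM against 5.99 and 7.04 CPM in WT of batch A. It thus moved in opposite directions in BptfΔ and WstfΔ, the 2 lines in which Dnmt3l fell most. edgeR called it raised in WstfΔ (log2 fold change 1.59, standard error 0.12), as it did 3.87% of the tested genes. Piwil4 and Dnmt3a were the 2 members called raised in any other line, beside 5.84% of the tested genes. The rule used these contrasts too, so nothing is read from that count.

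Topaz1 (gene ID 671232, chromosome 9, 122747199 to 122802135), a gene of germ cells, had the lowest WT level per kilobase of gene width. It had 72 counts over both WT libraries of batch C (2.33 and 1.64 CPM) and 3 over both BptfΔ libraries (0.059 and 0.12 CPM), a ratio of 4.38% (0.883 to 13.3%). The other 20 libraries lay between 0.73 and 1.93 CPM, so that its spread in the unaffected libraries was wide. The germline list was formed from starts of gene symbols, such as Tex, Ccdc and Cfap, so not all its genes are germline genes. It holds Piwil4 and not Topaz1. Of its 307 tested genes, 50 (16.3%) were called lowered and 10 raised in BptfΔ. Among them Piwil2, a second PIWI gene, was at 84.1 and 81.4 CPM in WT and 60.6 and 62.1 CPM in BptfΔ (log2 fold change -0.42) and was not called.

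Tnfsf11 (gene ID 21943, chromosome 14, 78277446 to 78308043) encodes RANKL, the ligand that drives osteoclast formation. It was at 11.5 CPM in both batch C WT libraries and at 1.66 and 1.38 CPM in BptfΔ, 13.2% of WT (9.70 to 17.7%). The other libraries lay between 6.07 and 11.1 CPM, above both. Its receptor gene Tnfrsf11a had little RNA, at 0.95 and 1.35 CPM in WT and 0.53 and 0.69 CPM in BptfΔ, and was not called. Of 208 tested cytokine, chemokine and leukocyte antigen genes, 31 (14.9%) were called lowered and 19 raised in BptfΔ.

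Igsf10 and Hpca are in the list of synapse and neuronal adhesion genes, Igsf10 only because its symbol starts with Igsf. The list was formed from such starts. Of its 160 tested genes, 28 (17.5%) were called lowered and 13 raised in BptfΔ. Igsf10 (gene ID 242050, chromosome 3, 59316735 to 59344438), of the immunoglobulin superfamily, was at 12.5 and 13.3 CPM in batch C WT and at 1.66 and 1.38 CPM in BptfΔ, 11.8% of WT (8.69 to 15.8%). Hpca (gene ID 15444, chromosome 4, 129111570 to 129125919), the gene of the neuronal calcium sensor hippocalcin, was at 3.07 and 3.45 CPM and at 0.53 and 0.35 CPM, 13.5% of WT (7.31 to 23.2%). The lowest of the other 20 libraries were at 6.06 CPM for Igsf10 and 2.47 CPM for Hpca, above both BptfΔ libraries. Both genes overlap another one in the annotation, Igsf10 with Med12l (log2 fold change -0.96) and Hpca with Tmem54 (-3.52). How overlapping genes were counted is not given in the sources used here, so reads of these pairs may not be told apart. Tmem54 was also called lowered in WstfΔ (-2.03) and Acf1Δ (-1.025), where Hpca had log2 fold changes of 0.24 and -0.01.

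Both transporter genes were lower in BptfΔ than in every other library. Slc2a5 (gene ID 56485, chromosome 4, 150119344 to 150144168) had 136 counts over the WT libraries of batch C (3.97 and 3.57 CPM) and 0 and 5 counts in the BptfΔ libraries, 3.87% of WT (1.24 to 9.25%). The other 20 libraries lay between 2.39 and 6.32 CPM. Slc5a11 (gene ID 233836, chromosome 7, 123214594 to 123274388) was at 12.4 and 12.8 CPM in batch C WT and at 2.14 and 3.39 CPM in BptfΔ, 22.01% of WT (17.5 to 27.5%). Its other libraries ranged widely, from 4.67 CPM in Tip5Δ to 21.5 CPM in a library labelled Cecr2Δ. Of 299 tested solute carrier genes, 32 (10.7%) were called lowered and 17 raised in BptfΔ, and the main glucose transporter genes of these cells, Slc2a1 and Slc2a3, had log2 fold changes of -0.59 and 0.08 without a call.

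Pdzd4, Armcx2 and Tmem28 lie on chromosome X, as did 3.52% of the tested genes and 20% of the members. Pdzd4 (gene ID 245469, 73793357 to 73825043), a PDZ domain protein gene, was at 159 and 152 CPM in batch C WT and at 25.4 and 24.9 CPM in BptfΔ, 16.1% of WT (14.98 to 17.3%). The other 20 libraries lay between 94.4 and 181 CPM. Per kilobase of the width in the table it had the highest level of all members, 39.2 CPM per kilobase in WT of batch C, against 16.3 for Armcx2, 13.9 for Gm20939, 11.1 for Dnmt3a and 0.39 for Topaz1.

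Armcx2 (gene ID 67416, 134804142 to 134809221), one of the armadillo repeat genes clustered on chromosome X, was at 72.0 and 76.2 CPM in batch C WT and at 17.3 and 16.1 CPM in BptfΔ, 22.6% of WT (20.6 to 24.7%). By the ratio of the highest to the lowest library it varied least elsewhere, between 59.4 and 80.7 CPM over 20 libraries. Its relatives did not move as one, with log2 fold changes of -1.38 for Armcx3 (called lowered), 0.69 for Armcx1 and 0.65 for Armcx4 (not called). Tmem28 (gene ID 620592, 99820164 to 99848789), a transmembrane protein gene, was at 5.60 and 6.50 CPM and at 0.89 and 1.32 CPM, 18.4% of WT (12.7 to 26.1%), and between 5.87 and 13.3 CPM elsewhere. Chromosome X as a whole stood lower in BptfΔ. Of its 552 tested genes 111 (20.1%) were called lowered and 12 raised, and their median log2 fold change was -0.22 against 0.01 for all tested genes. The 3 members had a d of -2.61, -2.12 and -2.03.

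The long noncoding RNA 2400006E01Rik (gene ID 78648, chromosome 3, 41500931 to 41528474) had the lowest d, -3.34. It had 164 counts over both WT libraries of batch C (4.49 and 4.62 CPM) and 0 counts in both BptfΔ libraries, which is at least 52.0-fold lower when the 2 BptfΔ libraries together are given 3 counts. The wider counting interval used for the other members reaches 2.39% of WT. It was between 3.46 and 5.93 CPM in the other 20 libraries, and its WT batches A, B, D and E differed by a log2 range of 0.20. Platr4, a further noncoding RNA of pluripotent cells 7.73 kb away, was at 14.7 CPM in WT and 3.57 CPM in BptfΔ (means, log2 fold change -2.02, edgeR adjusted p = 9.55e-13).

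Zfp941 (gene ID 407812, chromosome 7, 140807453 to 140822201), a zinc-finger gene, was at 25.3 and 25.1 CPM in batch C WT and at 4.51 and 4.03 CPM in BptfΔ, 16.9% of WT (14.1 to 20.2%). In the other 20 libraries it was between 12.6 and 22.1 CPM, all below WT of batch C and all above BptfΔ. Of 487 tested zinc-finger protein genes, 36 (7.39%) were called lowered and 13 (2.67%) raised in BptfΔ. Gm20939 (gene ID 100044193, chromosome 17, 94864901 to 94879925) was at 50.4 and 54.5 CPM and at 10.7 and 12.2 CPM, 21.9% of WT (19.6 to 24.5%), with 30.2 to 55.3 CPM elsewhere. It is in the list of predicted and unnamed loci with 2400006E01Rik and Tmem28, of which 110 of 1419 tested (7.75%) were called lowered and 72 raised.

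Prr23a3 (gene ID 71979, chromosome 9, 98864767 to 98866580), a proline-rich protein gene, stood out for its WT level. It was at 3.28 and 2.81 CPM in WT of batch C but at 7.99 to 12.8 CPM in the 9 other WT libraries. In BptfΔ it was at 0.30 and 0.29 CPM, 10 counts over both libraries against 110 in WT, 9.56% of WT (4.46 to 18.3%). Its d of -2.16 was thus measured from the lowest WT level of any batch. The near copies Prr23a1 and Prr23a2 were at 0.23 CPM or below in batch C, and how reads that match several copies were counted is not given in the sources used here.

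**Figure D4:**
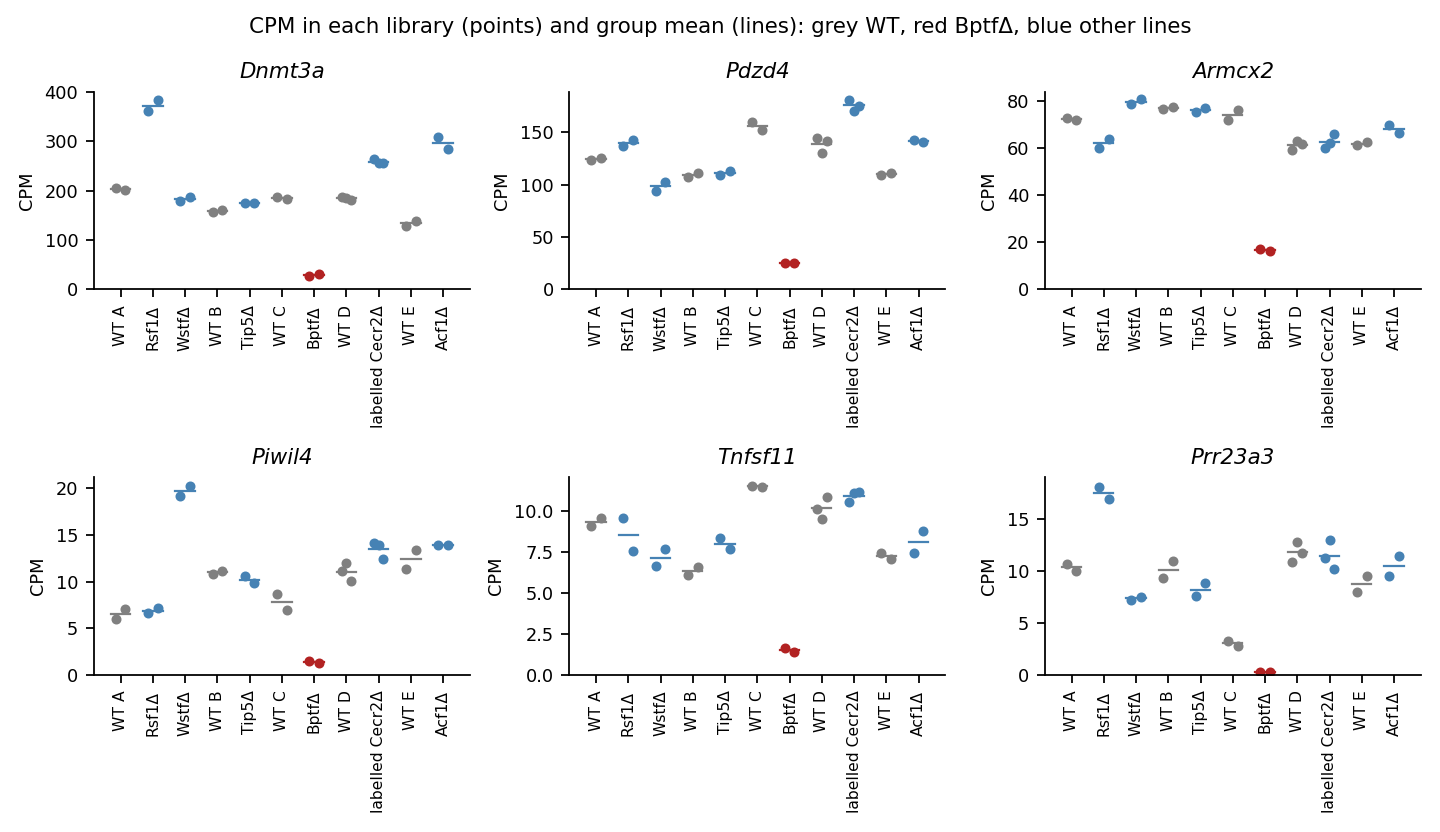
CPM of 6 members in each library (points) with the mean of each group (lines), WT in grey, BptfΔ in red and the other lines in blue. The red points lie below all others in each panel, Dnmt3a is highest in Rsf1Δ and Acf1Δ, Piwil4 is highest in WstfΔ, and Prr23a3 is lower in WT of batch C than in other WT batches.

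Over the 5 other lines the 15 members gave 75 values of d. Of these, 45 were above 0, 69 were within 0.5 of 0, and 2 were above 1, Piwil4 in WstfΔ (1.52) and Dnmt3a in Acf1Δ (1.14). The rule removed values of -0.5 or less and no high ones, so nothing is read from the balance of signs. Further values above 0.5 were 0.87 for Dnmt3a and 0.73 for Prr23a3 in Rsf1Δ, 0.66 for Slc5a11 in Acf1Δ and 0.53 for Slc2a5 in WstfΔ.

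**Figure D5:**
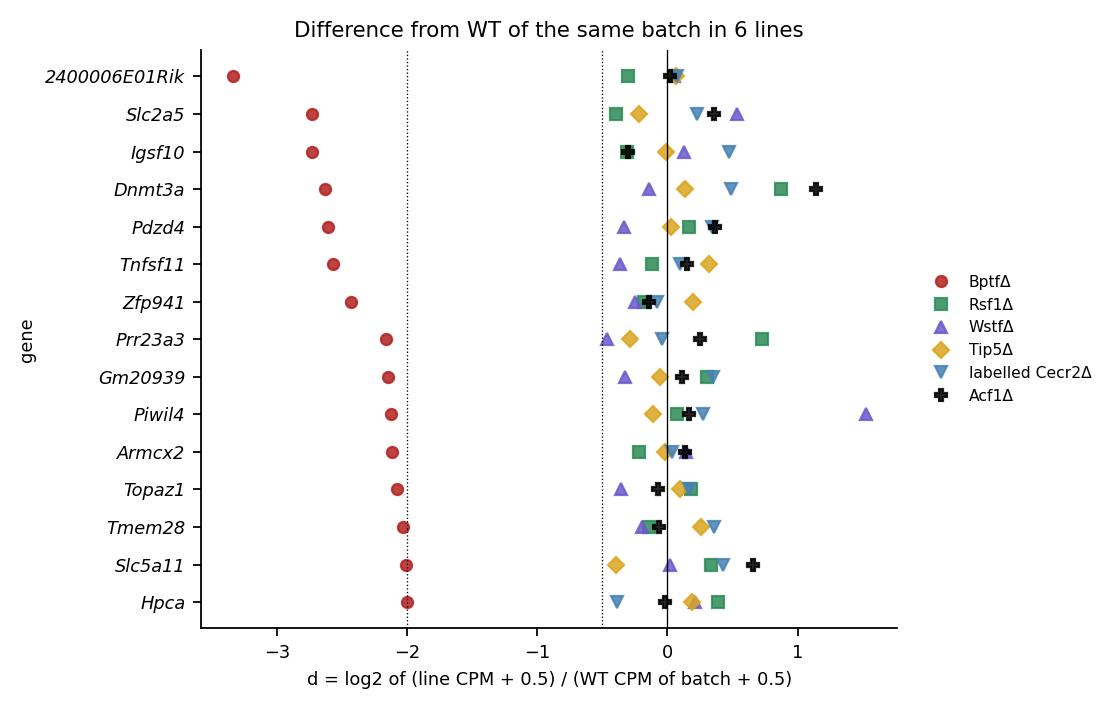
d of each member in the 6 lines, ordered by d in BptfΔ, with dotted lines at the limits of the rule (-2 and -0.5). BptfΔ lies at -2 or below, down to -3.34, and the other lines lie between -0.46 and 1.52.

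How much the members vary without any deletion is described by the 9 WT libraries of batches A, B, D and E. The rule used the means of these libraries as denominators of d, so the counts that follow are no test of the members and nothing is read from them. A difference among these batches of more than 1 on the log2 scale with an edgeR adjusted p under 0.01 was found for 1 of 15 members (6.67%) and for 15.5% of the tested genes. It was Slc5a11, with a range of 1.19, lowest in batch B (6.38 and 7.03 CPM) and highest in batch D (12.98, 15.6 and 15.9 CPM). Without WT library 2 of batch A or without WT library 1 of batch E, Piwil4 was the second such member, its range over all 9 libraries being 0.95. With no minimum on the range, 11 members and 62% of the tested genes had an adjusted p under 0.01. WT of batch C, from which the fall in BptfΔ was measured, was the highest of the 5 WT batches for 6 members, Igsf10, Pdzd4, Tnfsf11, Zfp941, Gm20939 and Topaz1, and for 23% of the tested genes. It was at least 2-fold above all other batches for 0 members.

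The members lie on 8 chromosomes, and the closest pair, Zfp941 and Slc5a11, is 17.5 Mb apart, so no member is a neighbour of another. Within 100 kb, 13 members had 53 other tested genes. Of these 6 (11.3%) were called lowered in BptfΔ (edgeR, 8.59% of all tested genes), 2 raised (5.25% of all) and 45 neither. The lowered neighbours were Platr4 beside 2400006E01Rik, Efr3b beside Dnmt3a (log2 fold change -1.20), L1cam beside Pdzd4 (-1.63), Syce1 beside Zfp941 (-1.38), Armcx3 beside Armcx2 (-1.38) and Tmem54 overlapping Hpca. The raised neighbours were Renbp near Pdzd4 (1.15) and Fndc5 near Hpca (1.01). Most genes around the members were thus not called.

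Of the 7 genes in the NURF list, Bptf (log2 fold change -1.97) and Smarca1, the gene of SNF2L (-1.53), were called lowered in BptfΔ. Smarca1 was at 54.1 and 50.8 CPM in WT and 17.3 and 18.7 CPM in BptfΔ. Smarca5, the gene of SNF2H (-0.24), Rbbp4 (-0.07), Rbbp7 (-0.46), Hmgxb4 (-0.41) and 2810408A11Rik (0.64) were not called. All of these but Rbbp4 had an edgeR adjusted p under 0.01 and missed only the fold minimum. Among the genes of the other subunits deleted in this study, Cecr2 (-1.56) and Baz1a (-1.74) were lower in BptfΔ, while Rsf1 (0.08), Baz1b (0.03) and Baz2a (0.10) were not called.

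Markers of other cell types moved in the same libraries. The summed level of 10 primitive endoderm markers was 245 and 275 CPM in WT of batch C and 16.1 and 16.2 CPM in BptfΔ, with all 10 called lowered. The same sum was 423 to 474 CPM in WT of batch A against 187 to 192 CPM in Rsf1Δ, 449.7 to 477 CPM in WT of batch B against 95.5 to 103 CPM in Tip5Δ, and 119 to 143 CPM in WT of batch D against 39.9 to 47.2 CPM in the libraries labelled Cecr2Δ. It was 229 to 249 CPM in WstfΔ, below WT of batch A, and 316 to 370.4 CPM in Acf1Δ, above the 290.2 to 306 CPM of WT of batch E. In batch C the summed trophectoderm markers (10 genes) were at 182 to 184 CPM in WT and 65.3 to 71.8 CPM in BptfΔ. Of these 5 were called lowered. The fibroblast markers (10 genes) were at 17.7 to 18.0 and 6.95 to 7.08 CPM, with 3 called lowered. Lum and Postn were at 0 counts in all 4 libraries. Both sums were also below WT of the same batch in each other line. The trophectoderm sum was 110 to 111 CPM in Rsf1Δ and 83.1 to 86.3 CPM in WstfΔ, against 463 to 469 CPM in WT of batch A. Neural markers (9 genes) summed to 139 to 144 CPM in WT of batch C and 159 to 161 CPM in BptfΔ, with Neurog2 at 0 counts. Single neural genes moved both ways, with 2 called lowered and 2 raised. The median log2 fold change of the 6 tested ones was -0.37. Blood and endothelial markers (9 genes) were at 98.8 to 101 and 76.1 CPM, with 2 called lowered and 1 raised. Mesoderm markers (9 genes) were at 3.98 to 4.39 and 2.30 to 3.38 CPM, with Cer1 at 0 and 1 called lowered. The 10 pluripotency markers, which define these cells, summed to 3487 and 3523 CPM in WT and to 6161 and 6165 CPM in BptfΔ. Of them 5 were called raised, 1 lowered and 4 neither. The pluripotency sum was also higher in WstfΔ (5305 to 5352 CPM) and Rsf1Δ (4362 to 4461 CPM) than in WT of batch A (3227 to 3314 CPM). It was above WT of its batch in Acf1Δ and the libraries labelled Cecr2Δ too, and below in Tip5Δ. In bulk RNA fewer cells of a type and less RNA per cell cannot be told apart, and the part of these markers in the members' levels was not tested.

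The rule has sharp limits. The members just inside d = -2 were Tmem28 (-2.03), Slc5a11 (-2.01) and Hpca (-2.0004), and just outside were Socs2 (-1.99), Bptf itself (-1.98) and Plekhd1 (-1.92). Nearest to -0.5 in another line were Prr23a3 (-0.46 in WstfΔ), Slc5a11 (-0.40 in Tip5Δ) and Slc2a5 (-0.40 in Rsf1Δ), and just outside were Dtd1 (-0.51), Stk26 (-0.51) and AW551984 (-0.52), whose d in BptfΔ was also at most -2.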

How the data were processed

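RNA-seq reads of 24 libraries had been aligned to mm10 with QuasR (Rhisat2) and counted for UCSC knownGene genes, and the authors deposited raw counts without normalization, with a width in bases per gene. Per the labels the libraries were made from poly(A) RNA with a stranded mRNA kit, while the study's methods name a TruSeq kit without calling it stranded, so strandedness is uncertain. The handling of strand, overlapping genes and reads with several matches is not given in the sources used here. Gene IDs were joined to RefSeq GRCm38.p6 (24570 of 24594 matched), which also gave the promoter windows.

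From the counts, CPM and d were computed as in the report. With R 4.3.3 and edgeR 4.0.16, genes were filtered with filterByExpr by genotype (15682 left), scaled with TMM factors, and fitted with the quasi-likelihood model (legacy form) with terms for batch and genotype. A gene was called lowered or raised with an absolute log2 fold change over 1 and a Benjamini-Hochberg adjusted p under 0.01. A gene not called can still have an adjusted p under 0.01 with a smaller fold change. The size of a log2 fold change divided by the root of its F statistic is its standard error. Replicates are separately labelled libraries of 1 clone or of WT cells, so p-values measure the spread between such libraries. Counting intervals (95%, exact binomial on the summed counts of 2 and 2 libraries) and the floor of 3 counts cover counting error only. The fit was tested on simulated data with known answers.

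Rule for named genes: the 10 members with the lowest d, the 10 with the highest CPM in WT of batch C, the 10 with the highest level in their lowest WT batch, the 3 nearest each limit inside and outside, members in gene lists or within 100 kb of another, the targeted gene and the NURF list. With 15 members all are named. Neighbours, other methylation genes and relatives of members were added after their values were seen. The members and lists were chosen with earlier results of these data known. Most lists were formed from starts of gene symbols, so they can hold genes of other functions and miss genes of the named one. Alternatives were other rule limits and pseudocounts, other scalings and filters, DESeq2 1.42.0, other thresholds, a replicate block and leaving out each library. Leaving out libraries beyond batch C in the rule and the promoter shares by level were chosen after seeing the data.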

Additional observations from a re-analysis of the deposited data

Results flagged for a closer look

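In 13 of the 15 members every library of one other line lay above, and every library of another line below, the WT libraries of its batch, as was so for 58.9% of all tested genes. These differences in d between lines were not tested, since the rule used the same contrasts, and each rests on 2 or 3 libraries a group. The difference in d was 1.63 for Piwil4 (WstfΔ over Tip5Δ), 1.29 for Dnmt3a (Acf1Δ over WstfΔ), 1.19 for Prr23a3 (Rsf1Δ over WstfΔ) and 1.06 for Slc5a11 (Acf1Δ over Tip5Δ). It was 0.93 for Slc2a5 (WstfΔ over Rsf1Δ), 0.79 for Igsf10 (libraries labelled Cecr2Δ over Rsf1Δ), 0.70 for Pdzd4 (Acf1Δ over WstfΔ), 0.68 for Tnfsf11 (Tip5Δ over WstfΔ), 0.68 for Gm20939 (libraries labelled Cecr2Δ over WstfΔ) and 0.54 for Topaz1 (Rsf1Δ over WstfΔ). The smallest were 0.49 for Tmem28 (libraries labelled Cecr2Δ over Rsf1Δ), 0.45 for Zfp941 (Tip5Δ over WstfΔ) and 0.36 for Armcx2 (WstfΔ over Rsf1Δ). WstfΔ was the lower line for 7 of these 13 members and the higher one for Piwil4, Slc2a5 and Armcx2.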

How the results depend on the processing

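The number of members depends on the limits of the rule. In place of 15 it was 40 with a pseudocount of 0.1, 11 with one of 1 (9 of them shared, without Hpca, Piwil4, Prr23a3, Slc5a11, Tmem28 and Topaz1), 63 with d at most -1.5, 6 with d at most -2.5, 5 with other lines over -0.25, 56 with other lines over -1, and 61 with fitted edgeR log2 fold changes in place of d. Leaving out 1 library at a time gave 12 to 20 members, and 7 members (2400006E01Rik, Dnmt3a, Pdzd4, Tnfsf11, Zfp941, Gm20939 and Armcx2) were kept in all 24 runs. With TMM-scaled CPM there were 13, without Hpca and Slc5a11. All 15 were called lowered in BptfΔ under every alternative run, which the choice of members on this contrast largely fixes and which is no sign of stability. The calls lowered over all genes were 672 with edgeR's glmTreat at 2-fold and 3173 without a fold minimum, in place of 1347, and 1109 to 1208 without 1 library of batch C. Members raised in another line were 1 (Piwil4) with glmTreat and 8 without a fold minimum, beside 1.27% and 36.1% of the tested genes. Members that differed among WT batches were 11 with no minimum (62.0% of the tested genes) and 1 to 2 without 1 library. WT of batch C was highest by a 2-fold margin for 0 members. Same-numbered libraries did not deviate together (correlations of -0.067 to 0.045, both libraries of a line with 2 giving the same value by construction), and with the replicate block 15 members and 1288 genes were called lowered. Slc2a5, with 0 and 5 counts in BptfΔ, had fitted log2 fold changes from -9.57 to -3.68, so depth limits the size of its fall.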
